A study of Mus musculus with 4 samples.

Results

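Acute-phase serum proteins are made in the liver and secreted into the blood, and 10 of their genes were followed here in the livers of mice with a hepatocyte deletion of Ddi2 and of their controls. The genes were taken by name through their Ensembl identifiers: the serum amyloid A genes Saa1, Saa2, Saa3 and Saa4, the orosomucoid genes Orm1 and Orm2, the haptoglobin gene Hp, the hemopexin gene Hpx, the lipocalin gene Lcn2 and the C-reactive protein gene Crp. They are 10 of the 48709 genes in the count tables, and the rule used their names and no measured level. In the acute-phase response, cytokines such as interleukin 6 and interleukin 1, released on infection or injury, act on hepatocytes and change which plasma proteins they secrete. Signals through STAT3, NF-kB and C/EBP factors raise the positive acute-phase genes, among them serum amyloid A, orosomucoid, haptoglobin and hemopexin, while albumin and transthyretin are negative acute-phase proteins. Mice differ from humans in that serum amyloid A and serum amyloid P, rather than C-reactive protein, are their major acute-phase reactants.

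DDI2 is an aspartic protease that activates the transcription factor NRF1, and the study asked which liver genes depend on it. Liver mRNA of untreated C57BL/6 mice was sequenced as 4 stranded libraries, 2 labelled WT and 2 labelled KO with the genotype DDI2-/-, called DDI2-KO below. By the study's methods the DDI2-KO mice were DDI2 flox/flox with Alb-Cre, a Cre recombinase driven by the albumin promoter and so active in hepatocytes, the controls were littermates, and young adult mice of both sexes were used. The age and sex behind each library were not given in the sources used here. Liver cells in which this Cre is not active keep the floxed gene. The model therefore removes Ddi2 from the cells that secrete most of these proteins, and not necessarily from the whole organ.

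The libraries held 34109018 and 31532247 reads on genes in WT replicates 1 and 2, and 25582344 and 22501208 in DDI2-KO replicates 1 and 2. Levels are given as CPM, read counts divided by the library size in megareads and scaled by edgeR's TMM factors. The detection limit was set at 3 counts, or 0.0880 to 0.133 CPM depending on the library. Ddi2 itself was at 141 and 123 CPM in WT and at 157 and 164 CPM in DDI2-KO libraries, a log2 difference of 0.28 with an adjusted p of 0.349 (edgeR's quasi-likelihood test, adjusted by Benjamini-Hochberg). The count sums all exons of the gene, retained ones included, so it does not check the labels, and the groups are those of the libraries as labelled. All 8 hepatocyte markers were detected, with a summed level of 152665 to 184673 CPM per library. Replicates of a group differed far beyond counting error, with a chi-square per degree of freedom of 64.7 between the WT and 34.7 between the DDI2-KO libraries.

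The 4 serum amyloid A genes lie together on chromosome 7 (GRCm38), in the order Saa3 (chr7:46711998-46715700), Saa4 (chr7:46727998-46732603), Saa1 (chr7:46740497-46742980) and Saa2 (chr7:46751790-46754313), with Saa2 on the plus strand and the other 3 on the minus strand. Saa1 and Saa2 point away from each other, with 8810 bases between their starts. Orm1 (chr4:63344560-63348163) and Orm2 (chr4:63362449-63365878) lie on the plus strand of chromosome 4 on either side of Orm3, another orosomucoid gene. Hpx is at chr7:105591613-105600137 and Hp at chr8:109575128-109579172, while Lcn2 is at chr2:32384633-32388252 and Crp at chr1:172698055-172833031. No exon of the 10 genes overlaps an exon of another gene in the annotation used.

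The sequences before the starts of paralogs show how near the copies are to each other, for Saa1 and Saa2 and for Orm2 and Orm3. RefSeq promoter windows of GRCm38.p6, the 250 bases before the gene start, were found for 8 of the 10 genes, all but Orm1 and Hp. For some genes the RefSeq start differs from the gene bounds given above. The Saa2 window ends at chr7:46751832, past the bound at 46751790. The Lcn2 window (chr2:32387740-32387989) lies within the gene as given above. The Saa1 and Saa2 windows were identical at 95.6% of aligned bases, against 57.1% for Saa1 and Saa3 and 55.8% for Saa1 and Saa4, and the windows of Orm2 and Orm3 at 89.0%. The first 200 bases of 5 windows are shown from 5′ to 3′ on the strand of the gene, from 250 to 51 bases before the start, and capitals mark matches to the C/EBP-type motif TTGCNNAA or, in Saa3, also to the NF-kB type motif GGNNTTTCC, read on either strand. They are at chr7:46743031-46743230 on the minus strand for Saa1, chr7:46751583-46751782 on the plus strand for Saa2, chr7:46715727-46715926 on the minus strand for Saa3, chr4:63362199-63362398 on the plus strand for Orm2 and chr4:63355908-63356107 on the plus strand for Orm3.
Saa1: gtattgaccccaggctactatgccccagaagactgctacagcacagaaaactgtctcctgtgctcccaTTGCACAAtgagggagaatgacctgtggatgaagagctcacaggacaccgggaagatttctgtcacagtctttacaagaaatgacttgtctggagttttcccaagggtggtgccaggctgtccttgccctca
Saa2: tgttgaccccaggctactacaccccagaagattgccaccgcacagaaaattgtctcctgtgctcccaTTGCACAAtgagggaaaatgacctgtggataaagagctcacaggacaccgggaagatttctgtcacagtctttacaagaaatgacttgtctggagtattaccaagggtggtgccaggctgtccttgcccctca
Saa3: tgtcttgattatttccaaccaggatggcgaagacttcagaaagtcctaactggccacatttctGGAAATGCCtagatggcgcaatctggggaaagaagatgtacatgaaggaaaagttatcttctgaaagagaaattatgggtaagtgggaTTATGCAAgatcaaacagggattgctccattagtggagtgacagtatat
Orm2: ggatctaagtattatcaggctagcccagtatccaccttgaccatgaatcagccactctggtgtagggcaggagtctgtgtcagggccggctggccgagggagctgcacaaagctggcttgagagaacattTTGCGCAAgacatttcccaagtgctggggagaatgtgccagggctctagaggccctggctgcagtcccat
Orm3: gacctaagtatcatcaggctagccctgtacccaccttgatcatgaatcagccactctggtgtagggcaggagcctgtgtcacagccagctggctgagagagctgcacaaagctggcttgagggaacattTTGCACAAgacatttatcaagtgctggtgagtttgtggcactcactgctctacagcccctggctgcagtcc

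A C/EBP-type match was present in 7 of the 8 windows, with Crp as the exception, and in 9.56% of the 32851 promoter windows of the same length. In Saa1 and Saa2 the match had the same letters, TTGCACAA, and began 182 and 183 bases before the RefSeq start. The Orm2 match, TTGCGCAA, which reads the same on both strands and is counted under both C/EBP motifs searched, began 120 bases before the start, and at 121 bases Orm3 had TTGCACAA in its place. TTGCGCAA was in 1 of the 8 windows and in 0.164% of all windows. The NF-kB type motif was found in 1 of 8, the Saa3 window, against 4.93% of all windows. The STAT3-type motif TTCCNGGAA, in 0.913% of all windows, was found in 0 of the 8. A match describes the letters of a window and says nothing of binding.

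**Figure D1:**
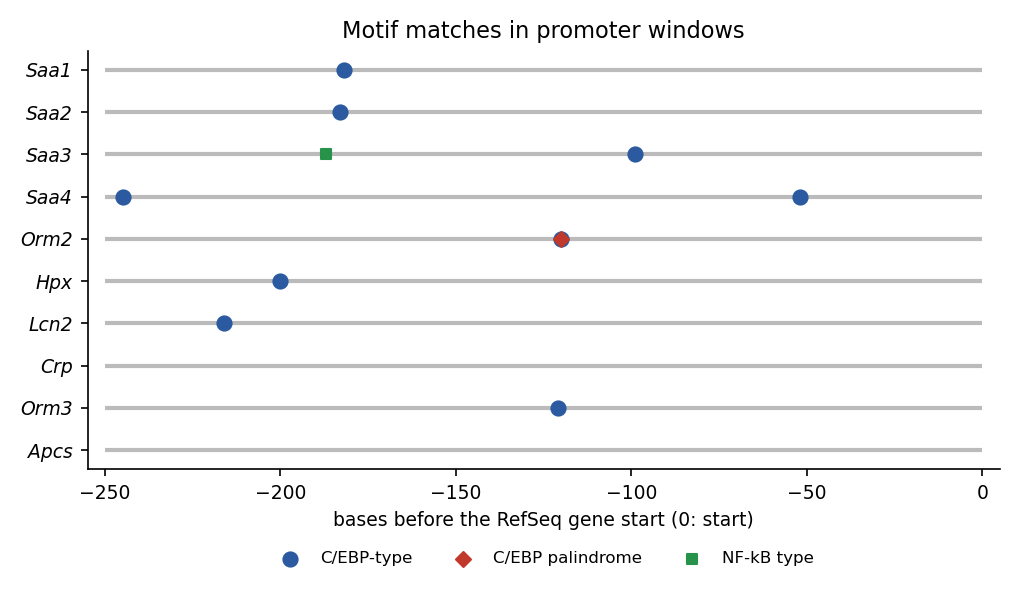
Matches to 3 motifs (points) in the 250 bases before the RefSeq start of 8 of the 10 genes and of the relatives Orm3 and Apcs, with distance from the start in bases on the x axis. A C/EBP-type match stands in every row but those of Crp and Apcs, at nearly the same distance in Saa1 and Saa2 and in Orm2 and Orm3.

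In untreated liver the 10 genes spanned a wide range of levels, and no member passed the test between genotypes. Per kilobase of the main coding transcript, the scale on which genes can be compared, Hpx was highest, with a mean of 3276 CPM per kb over the 4 libraries. Hp followed at 1030 and Orm1 at 978 CPM per kb, with overlapping ranges. Crp at 242 and Saa4 at 109 CPM per kb each lay below the gene before it in every library. Saa1 at 51.0 CPM per kb was below Saa4 in every library, but its range overlapped that of Orm2 at 39.3 CPM per kb. Saa2 at 24.9, Lcn2 at 11.4 and Saa3 at 8.84 CPM per kb came last, each overlapping the gene before it. The order therefore had 5 steps at which the ranges over the 4 libraries overlapped, although Lcn2 was below Saa2 within each library. Together the 10 genes took 0.670% and 0.752% of the gene reads in WT and 0.854% and 0.842% in DDI2-KO libraries, and most of these reads were from Hpx.

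**Figure D2:**
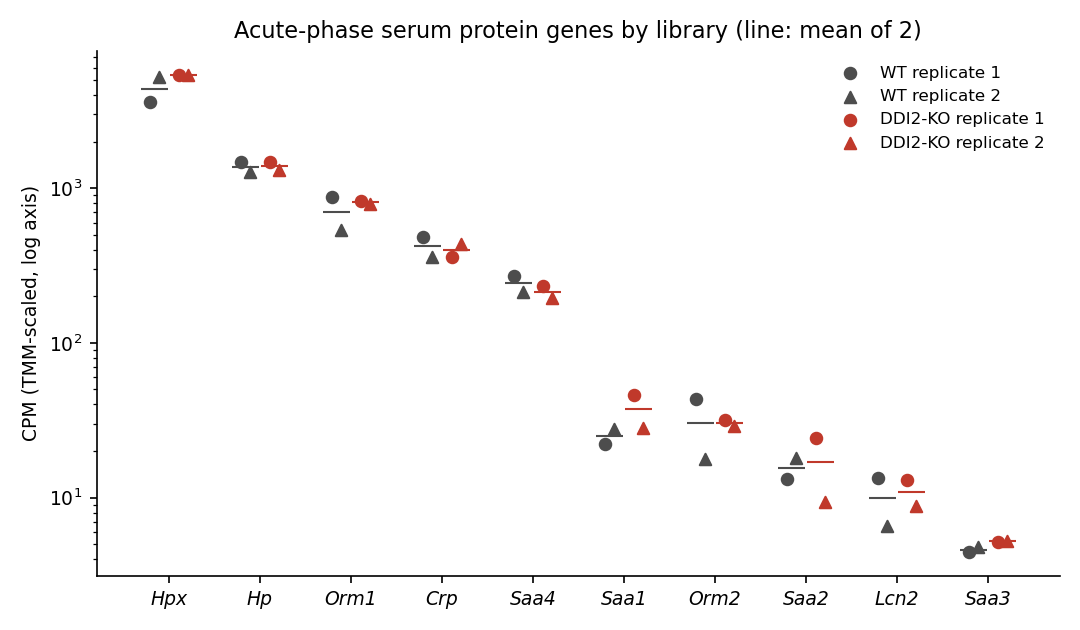
Level of each of the 10 genes in CPM (log axis) in the 2 WT (grey) and 2 DDI2-KO libraries (red), with replicate 1 as circles, replicate 2 as triangles and lines at the group means. Points of both genotypes interleave for 7 of the 10 genes, and the level falls from Hpx, at 3600 CPM or more, to Saa3, at most 5.27 CPM, in all 4 libraries.

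Of the 10 genes, all kept by the filter on low counts, 0 had an adjusted p under 0.05 by edgeR's quasi-likelihood test, against 2.53% of the 13699 genes tested. At an unadjusted p under 0.05 the count was also 0 of 10 by edgeR, where 23.5% of all tested genes passed. DESeq2 called 0 of 10 (7.25% of all genes), limma-voom 0 of 10 (0.993%) and limma-trend 0 of 10 (2.32%). At an unadjusted p under 0.05 DESeq2 had 1 of 10, for which the share over all genes was not computed. The fitted log2 difference was above 0 for 7 members and below 0 for 3, with a median of 0.13 against -0.01 over all tested genes. For 3 members, Saa1, Saa3 and Hpx, both DDI2-KO libraries were above both WT libraries, and no member had them both below. Groups that do not overlap were found in 55.7% of all tested genes, and both DDI2-KO libraries lay above in 28.0%, so 3 of 10 is near the background. With 2 libraries per group the intervals were wide. These p-values set the difference against the spread between libraries of a group, estimated in part from other genes. They cover the sampled livers alone. In bulk tissue, fewer cells that express a gene and less of its RNA per cell cannot be told apart.

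**Figure D3:**
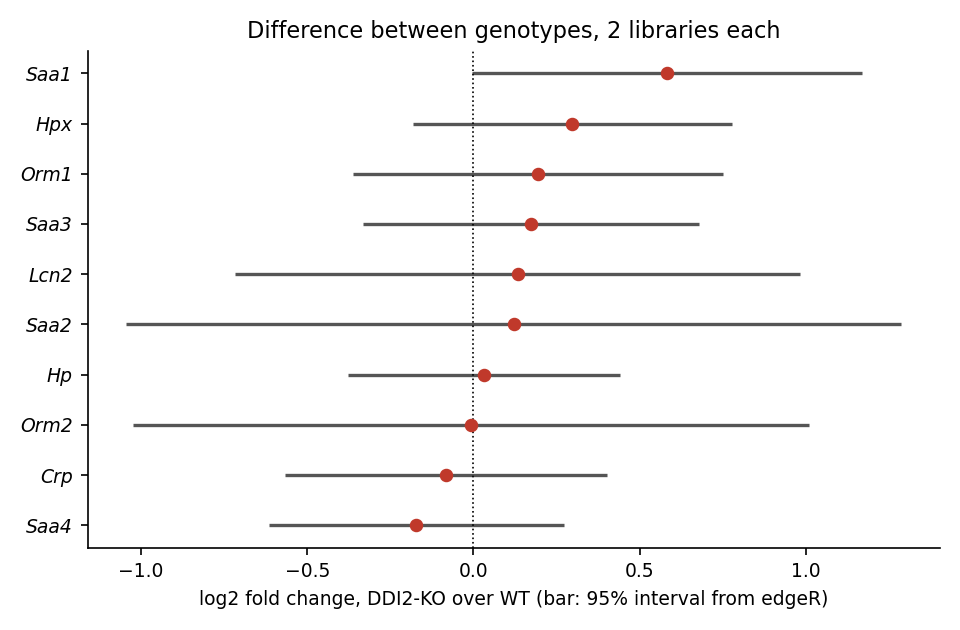
Fitted log2 difference, DDI2-KO over WT, of each of the 10 genes (point) with its 95% interval from edgeR (bar), 2 libraries per genotype. All 10 intervals include 0, that of Saa1 from -0.01 to 1.17, and the widest are those of Saa2 and Orm2.

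Serum amyloid A proteins are small apolipoproteins of high density lipoprotein. Saa1 and Saa2 encode the strongly induced forms that the liver secretes, and Saa1 was at 22.0 and 27.8 CPM in WT and at 46.3 and 28.2 CPM in DDI2-KO libraries. Both DDI2-KO values were above both WT values, but DDI2-KO replicate 2 exceeded WT replicate 2 by little, and DDI2-KO replicate 1 alone stood high. The fitted difference was 0.58 on the log2 scale (SE 0.25, 95% interval -0.01 to 1.17), a fold of 1.50 with an interval from 0.996 to 2.25, and the Benjamini-Hochberg adjusted p was 0.216 in edgeR's quasi-likelihood fit. It had the lowest p of the 10 genes. Without DDI2-KO replicate 2 the difference was 0.90 and passed the test (edgeR adjusted p = 0.0417), and without DDI2-KO replicate 1 it was 0.18, so the call rests on which of these libraries is kept.

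Saa2 was at 13.2 and 18.0 CPM in WT and at 24.4 and 9.36 CPM in DDI2-KO libraries. The highest and the lowest value were both DDI2-KO, so the groups overlapped, and DDI2-KO replicate 1 was 2.61 times replicate 2. The fitted log2 difference was 0.12 (SE 0.46, interval -1.04 to 1.29, edgeR adjusted p = 0.905), which leaves room for more than a doubling in either direction. Its sign turned in 5 alternatives, among them the fit without DDI2-KO replicate 1, at -0.73.

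Saa1 and Saa2 ranked the libraries alike at the top, with DDI2-KO replicate 1 highest and WT replicate 2 above WT replicate 1, and differed in the place of DDI2-KO replicate 2. Saa2 reads were 37.4% and 39.3% of the summed Saa1 and Saa2 reads in WT replicates 1 and 2, with Wilson 95% intervals of 34.7 to 40.2% and 36.8 to 41.9%. In DDI2-KO the share was 34.5% in replicate 1 (32.4 to 36.7%) and 24.9% in replicate 2 (22.2 to 27.9%). DDI2-KO replicate 2 thus had a lower Saa2 share than the other 3 libraries beyond counting error, which is the only error these intervals cover. The transcripts are identical at 94.4% of aligned bases, and 14.8% of the 50-base stretches of Saa1 and 9.12% of those of Saa2 also occur in another gene, so some reads could not be placed on one copy. With the reads of both genes summed, the levels were 35.2 and 45.7 CPM in WT and 70.7 and 37.5 CPM in DDI2-KO libraries, which overlap. The log2 difference of the sum was 0.42 (SE 0.30, interval -0.30 to 1.15, edgeR adjusted p = 0.452).

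Saa3, which in mice is made mainly outside hepatocytes, by macrophages and adipocytes among others, was the lowest member, at 4.46 and 4.76 CPM in WT and 5.14 and 5.27 CPM in DDI2-KO libraries. Both DDI2-KO libraries were slightly above both WT libraries. Replicates were within 1.07-fold in WT and 1.02-fold in DDI2-KO, the closest of the 10 genes in WT, but the values rest on 121 to 150 reads per library. Between genotypes, Saa3 differed by 0.17 on the log2 scale (SE 0.22, interval -0.33 to 0.68, edgeR adjusted p = 0.680). Summed Kupffer cell and macrophage markers were at 984 and 839 CPM in WT and at 1067 and 869 CPM in DDI2-KO libraries, with 0 of 10 called and an overlap between groups. The markers went both ways, with both DDI2-KO libraries above both WT libraries for 3 of 10, such as Adgre1 (log2 difference 0.58), and below for 4 of 10, such as C1qa (-0.72). Over all tested genes, the groups did not overlap in 55.7%, and both DDI2-KO libraries lay above in 28.0%. The part of Kupffer cells and macrophages in the Saa3 level was not tested. Adipocyte markers were near the detection limit, 0.0870 to 0.155 CPM in sum, with 4 of 6 at 0 in every library.

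Saa4, the constitutive serum amyloid A, was at 269 and 215 CPM in WT and at 233 and 196 CPM in DDI2-KO libraries. The groups overlapped, and in both genotypes replicate 1 was the higher. Between genotypes, Saa4 differed by -0.17 on the log2 scale (SE 0.19, interval -0.62 to 0.27, edgeR adjusted p = 0.637). Per kilobase, Saa4 was above the inducible Saa1, Saa2 and Saa3 in every one of the 4 libraries.

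Orosomucoids, or alpha-1-acid glycoproteins, are plasma lipocalins that carry drugs and lipids. Orm1 was at 876 and 538 CPM in WT and at 832 and 786 CPM in DDI2-KO libraries. Both DDI2-KO values fell between the WT values. Orm1 thus had a fitted log2 difference of 0.19 (SE 0.24, interval -0.36 to 0.75, edgeR adjusted p = 0.675).

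Orm2 showed the same order at a lower level, at 43.2 and 17.8 CPM in WT and at 31.8 and 28.9 CPM in DDI2-KO libraries. WT replicate 1 was 2.42 times WT replicate 2, and the DDI2-KO libraries again lay between them. The log2 difference was -0.01 (SE 0.41, interval -1.02 to 1.01, edgeR adjusted p = 0.993), and it was 0.77 without WT replicate 1. Orm1 supplied 94.9 to 96.6% of the reads on the 3 orosomucoid genes and Orm2 3.20 to 4.68%. The transcripts of Orm1 and Orm2 are identical at 91.0% of aligned bases, with 20.4% and 22.7% of their 50-base stretches found in another gene, so their split is uncertain.

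Orm3, which was not one of the 10 genes, took 0.470% (Wilson 95% interval 0.400 to 0.553%) and 0.232% (0.171 to 0.316%) of the orosomucoid reads in WT. In DDI2-KO it took 1.26% (1.13 to 1.42%) and 1.20% (1.06 to 1.37%). Its levels were 4.34 and 1.30 CPM in WT and 11.0 and 9.92 CPM in DDI2-KO libraries, so the groups did not overlap, but the WT libraries themselves differed by more than 3 times. The log2 difference of 1.89 (SE 0.52, interval 0.61 to 3.16) did not pass the test, with an edgeR adjusted p of 0.109. Only 3.59% of its 50-base stretches occur in another gene. DESeq2 called it (adjusted p = 0.000805), as did edgeR without WT replicate 1, at 3.02 (adjusted p = 0.00461), and with a replicate block (0.0182), while limma-voom did not, at 0.0678. Leaving out 1 library moved the difference from 1.27 to 3.02. Summed over the 3 genes, the orosomucoids were at 923 and 557 CPM in WT and at 874 and 825 CPM in DDI2-KO libraries, a log2 difference of 0.20 (SE 0.25, interval -0.37 to 0.77, edgeR adjusted p = 0.673).

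Haptoglobin, hemopexin and lipocalin 2 limit the loss of iron and the harm of free heme: haptoglobin binds hemoglobin, hemopexin binds heme, and lipocalin 2 binds the siderophores with which bacteria take up iron. Hp was at 1469 and 1272 CPM in WT and at 1482 and 1319 CPM in DDI2-KO libraries. The groups overlapped almost fully, and in both genotypes replicate 1 was slightly higher. The log2 difference was 0.03 (SE 0.18, interval -0.38 to 0.44, edgeR adjusted p = 0.935), the narrowest interval of the 10 genes, with both bounds under a change of 1.5 times.

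Hpx was at 3600 and 5212 CPM in WT and at 5408 and 5423 CPM in DDI2-KO libraries. Both DDI2-KO libraries were above both WT libraries, but WT replicate 2 was close to them and WT replicate 1 alone was low. The log2 difference was 0.30 (SE 0.21, interval -0.18 to 0.78, edgeR adjusted p = 0.429). Without WT replicate 1 it was 0.06, and without WT replicate 2 it was 0.59. The ratio of Hpx to Hp reads was 2.45 in WT replicate 1 and 4.10, 3.65 and 4.11 in WT replicate 2 and DDI2-KO replicates 1 and 2, so both genes did not share one order over the libraries. Red blood cell markers, a measure of blood left in the tissue, summed to 109 and 210 CPM in WT and to 79.3 and 68.3 CPM in DDI2-KO libraries. All 5 were fitted below 0, and 1, Hba-a1, was called lower (log2 difference -1.94, edgeR adjusted p = 0.0338), a call lost without DDI2-KO replicate 1 or without DDI2-KO replicate 2. Of the 50-base stretches of Hba-a1, 67.5% also occur in another gene, so some of its reads could not be placed on one copy. The part of residual blood in the levels of these plasma protein genes was not tested.

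Lcn2 was at 13.4 and 6.57 CPM in WT and at 13.0 and 8.83 CPM in DDI2-KO libraries. The groups overlapped, and replicate 1 was the higher in both, by 2.03 times in WT and 1.47 times in DDI2-KO. Lcn2 thus had a fitted log2 difference of 0.13 (SE 0.36, interval -0.72 to 0.98, edgeR adjusted p = 0.859). Neutrophils also store lipocalin 2, and the 12 neutrophil markers summed to 9.10 and 9.58 CPM in WT and to 8.77 and 8.05 CPM in DDI2-KO libraries, with 5 tested and 0 called. Csf3r, which macrophages also express, made up the larger part of the WT replicate 1 sum, at 5.47 CPM. S100a9 was at 1.01 and 1.39 CPM in WT and at 1.66 and 1.39 CPM in DDI2-KO libraries. Of the 5 tested neutrophil markers, 4 were fitted above 0 and 1 below, with a median log2 difference of 0.20. The part of neutrophils in the Lcn2 level was not tested.

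C-reactive protein is a pentraxin that binds phosphocholine on microbes and damaged cells. Crp was at 487 and 359 CPM in WT and at 361 and 437 CPM in DDI2-KO libraries. Both DDI2-KO values lay between the WT values. The log2 difference was -0.08 (SE 0.21, interval -0.57 to 0.40, edgeR adjusted p = 0.848). Its relative Apcs, which encodes the pentraxin serum amyloid P, was at 171 and 116 CPM in WT and at 243 and 225 CPM in DDI2-KO libraries. The Apcs groups did not overlap, and its log2 difference of 0.70 (SE 0.22, interval 0.21 to 1.20) did not pass the test, with an edgeR adjusted p of 0.108. It was called by DESeq2 (adjusted p = 0.0321), with a replicate block (0.0350) and with no filter on low counts (0.0163), and leaving out 1 library moved it from 0.45 to 1.01 with no call. For Ptx3, the long pentraxin, no WT library held a read and DDI2-KO replicates 1 and 2 held 4 and 1, so it was not tested. Ambp, a lipocalin relative that encodes alpha-1-microglobulin and bikunin, had a log2 difference of -0.08 (edgeR adjusted p = 0.801).

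The spread between replicates was uneven over the 10 genes and fell on different libraries. In WT, Orm2, Lcn2 and Orm1 differed most, by 2.42, 2.03 and 1.63 times, always with replicate 1 higher, and 2.02%, 3.80% and 8.42% of all tested genes differed by at least as much between those libraries. In DDI2-KO, Saa2, Saa1 and Lcn2 differed most, by 2.61, 1.65 and 1.47 times, again with replicate 1 higher, against 2.31%, 12.0% and 19.7% of all tested genes. Orm1 and Orm2 were within 1.06 and 1.10 times of each other between the DDI2-KO libraries, and Hpx within 1.00. The 10 genes therefore did not rise or fall as 1 block from library to library: WT replicate 1 was above WT replicate 2 for 6 of them and below for Saa1, Saa2, Saa3 and Hpx.

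**Figure D4:**
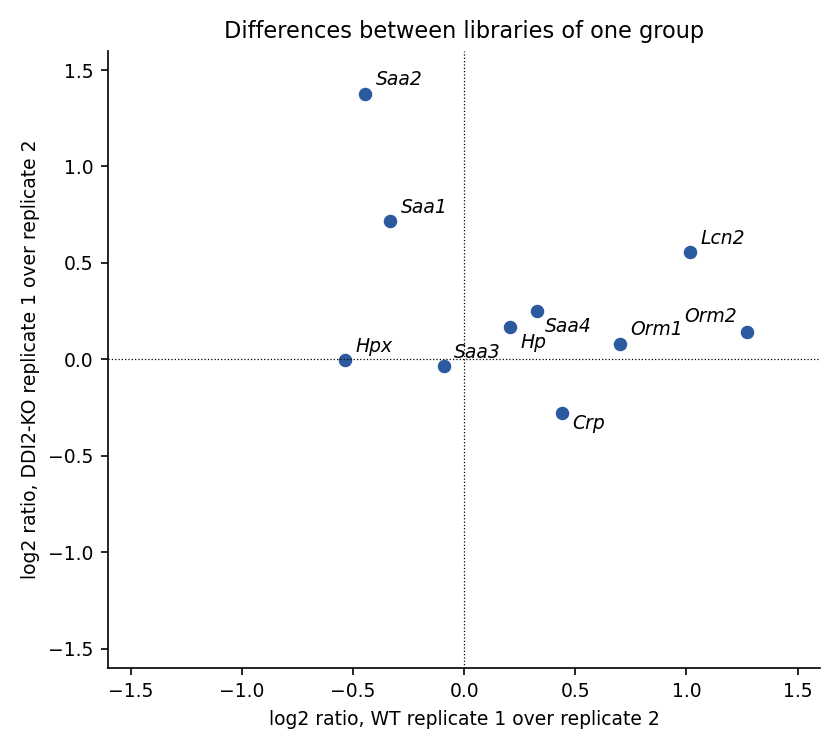
Log2 ratio of replicate 1 over replicate 2 in WT (x axis) and in DDI2-KO (y axis) for each of the 10 genes, each axis from 1 pair of libraries. Orm1, Orm2 and Lcn2 lie to the right, with large WT differences, while Saa1 and Saa2 lie at the upper left, higher in DDI2-KO replicate 1 and slightly lower in WT replicate 1.

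Of 8 genes for cytokines that start the response, 3 had enough reads to be tested, Il1a, Il1b and Tnf, and 0 were called. For Il6, the main inducer, WT replicates held 1 and 4 reads and DDI2-KO replicates 0 and 5, and Il22 had 0 in all 4. Both interleukin 1 genes were above the detection limit in every library. Il1a was highest, at 9.93 and 6.64 CPM in WT and 6.41 and 8.70 CPM in DDI2-KO libraries. Il1b and Tnf had log2 differences of 0.56 and -0.38 (edgeR adjusted p = 0.376 and 0.688).

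Receptors for these cytokines and for glucocorticoid were all detected, and 0 of 10 were called, with 6 fitted above 0, 4 below and a median of 0.11. Lifr, which encodes a receptor of leukemia inhibitory factor, was highest, at 542 and 324 CPM in WT and 518 and 603 CPM in DDI2-KO libraries. Il6ra, the interleukin 6 receptor, was at 45.3 and 42.6 CPM in WT and at 35.7 and 28.4 CPM in DDI2-KO libraries. Its groups did not overlap, but its log2 difference of -0.46 did not pass the test (edgeR adjusted p = 0.165). The shared signalling subunit Il6st differed by 0.01 and Il1rap, the accessory protein of the interleukin 1 receptor, by 0.21 on the log2 scale, with edgeR adjusted p of 0.983 and 0.491. The largest value in the list was that of Il22ra1, the interleukin 22 receptor, at 0.41 (edgeR adjusted p = 0.389).

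Among 20 kinases, transcription factors and inhibitors of the response, 18 were tested and 0 called, with 8 fitted above 0, 10 below and a median of -0.07. Socs3, a STAT3-induced inhibitor of that pathway, was at 8.54 and 6.47 CPM in WT and at 9.58 and 17.0 CPM in DDI2-KO libraries. Cebpa, a C/EBP factor of hepatocytes, was at 126 and 119 CPM in WT and at 226 and 163 CPM in DDI2-KO libraries. In both genes the groups did not overlap, with log2 differences of 0.82 and 0.66, but neither passed the test (edgeR adjusted p = 0.154 and 0.105). Hnf4a and Jak1 differed by 0.23 and -0.13 on the log2 scale (edgeR adjusted p = 0.514 and 0.670).

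Of 19 other positive acute-phase genes of mouse liver, 18 were tested, 0 were called higher and 1 lower, with 10 fitted above 0, 8 below and a median of 0.11. The called gene was Il1rn, which encodes the interleukin 1 receptor antagonist. It was at 9.55 and 10.6 CPM in WT and at 4.67 and 2.61 CPM in DDI2-KO libraries, a log2 difference of -1.46 (SE 0.29, interval -2.13 to -0.80, edgeR adjusted p = 0.0442). Both DDI2-KO libraries were below both WT libraries, but the call was lost without WT replicate 1 (edgeR adjusted p = 0.0874), without WT replicate 2 (0.0934), in limma-voom (0.0591) and with no robust estimation (0.0581). C3, Fgb and Fga, for complement C3 and fibrinogen chains, were the most abundant, with log2 differences of -0.09, -0.03 and 0.31 (edgeR adjusted p = 0.778, 0.927 and 0.283). Cfb, for complement factor B, had the largest value, 0.90, from 1.99 and 1.62 CPM in WT to 3.36 and 3.39 CPM in DDI2-KO libraries (edgeR adjusted p = 0.114).

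Negative acute-phase genes gave 0 of 9 calls, with 4 fitted above 0, 5 below and a median of -0.20. Trf, which encodes transferrin, was at 700 and 788 CPM in WT and at 1135 and 1553 CPM in DDI2-KO libraries. Its groups did not overlap, and its log2 difference of 0.85 (SE 0.21, interval 0.38 to 1.33) had an edgeR adjusted p of 0.067. Alb, Ahsg and Gc, for albumin, fetuin A and the vitamin D binding protein, were the most abundant, at -0.20, -0.30 and 0.22 on the log2 scale (edgeR adjusted p = 0.466, 0.337 and 0.452). The lowest value was that of Serpina6, for corticosteroid binding globulin, at -0.53 (edgeR adjusted p = 0.296).

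Receptors and enzymes that handle the secreted proteins or their ligands gave 0 calls among 9 tested of 10, with 3 fitted above 0, 6 below and a median of -0.11. Lrp1, which takes up hemopexin with its heme, was at 469 and 347 CPM in WT and at 346 and 225 CPM in DDI2-KO libraries. Its log2 difference was -0.51 (edgeR adjusted p = 0.260). Scarb1, a receptor for high density lipoprotein, and Apoa2, an apolipoprotein of the same particle, differed by -0.16 and -0.18 (edgeR adjusted p = 0.630 and 0.580), and Tlr2 by 0.35 (edgeR adjusted p = 0.344).

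**Figure D5:**
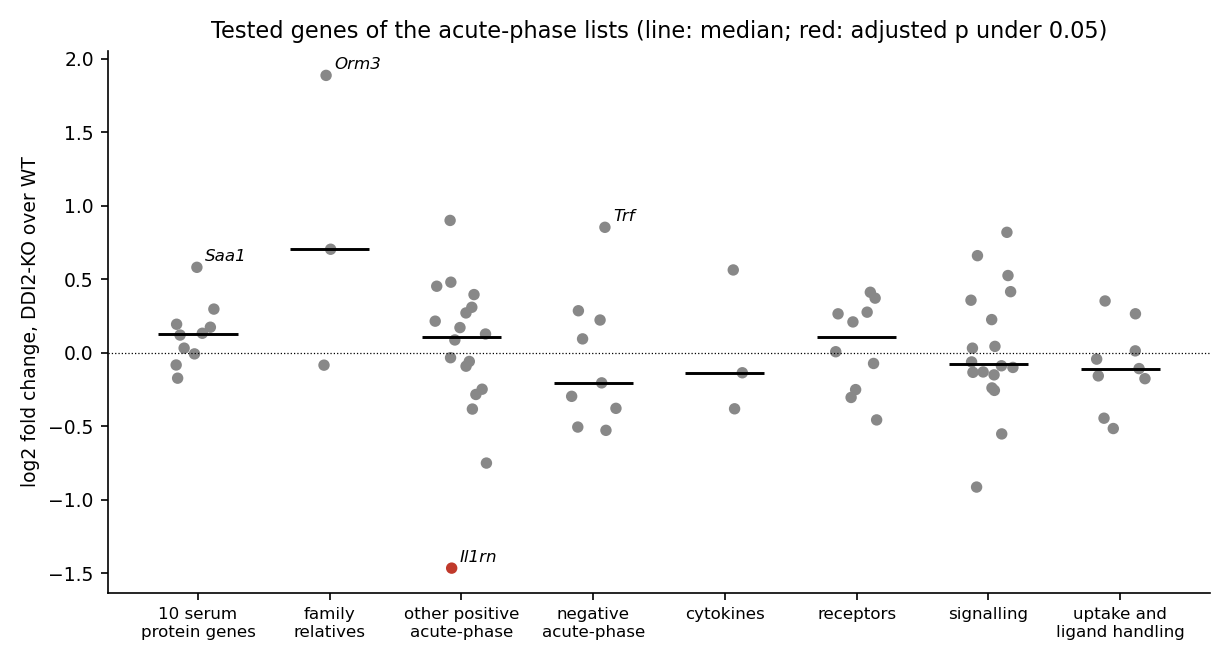
Fitted log2 difference, DDI2-KO over WT, of every tested gene of the 10 serum protein genes and of 7 lists of related genes (points), with the list median as a line and genes with an edgeR adjusted p under 0.05 in red. List medians lie near 0 except that of the 3 tested family relatives, at 0.70, and Il1rn is the 1 gene past the threshold.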

How the data were processed

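Liver mRNA was sequenced in 2 WT and 2 DDI2-KO libraries. The authors deposited raw counts, not normalized, as reads per Ensembl gene and library. The submitters' processing notes name cutadapt 1.8, STAR 2.5.2b, HTSeq 0.6.1 and GRCm38, and whether counting used strand is not given in the sources used here. Symbols were found for 48349 of 48709 identifiers. Summary lines after the genes were left out of library sizes and tests. The counts of all genes were fitted in R 4.3.3 by edgeR 4.0.16 (TMM factors, filterByExpr, robust glmQLFit, then glmQLFTest), and p-values were adjusted by Benjamini-Hochberg over the 13699 genes kept. A standard error was the log2 difference divided by the square root of F. The study's methods name a moderated test of limma, and limma-voom (limma 3.58.1) was an alternative, beside DESeq2 1.42.0, limma-trend, other scalings and filters, a replicate block and leaving out each library. Shares have Wilson intervals at 95%. Transcripts and promoters were searched for shared 50-base stretches and motifs. The genes, lists and tests were chosen with earlier results of these data known. Named genes are the 10 members and, from each list, called genes, the 3 most abundant, and the largest and smallest log2 difference, and Il6, Il22 and Ptx3 were named after their values were seen. A gene that this rule names is not reported here. Precision is set by having 2 libraries a group rather than by depth, which ran from 22501208 to 34109018 reads on genes.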

Additional observations from a re-analysis of the deposited data

Results flagged for a closer look

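The counting summary, which no comparison used, held more reads that overlapped more than 1 annotated gene in the DDI2-KO libraries. They came to 3.49% of the reads on genes in DDI2-KO replicate 1 and 3.66% in DDI2-KO replicate 2, where the WT replicates had at most 2.54%. Such reads are counted for no gene, and no exon of the Saa or Orm genes overlaps another gene. Reads that aligned to more than 1 place, the class that reads shared by paralogs enter, went the other way, with 65.8% and 51.8% in the WT replicates against 49.2% and 47.3% in the DDI2-KO replicates, as a percent of gene reads.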

How the results depend on the processing

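Leaving aside fits without a library, 91 of 100 results for single members kept their direction and their side of the threshold, and 27 of 40 did so when 1 library was left out, where the lone library of a group is assumed to vary like the other group. Leaving out 1 library gave 0 to 1 called members, the 1 being Saa1 without DDI2-KO replicate 2, and no other alternative called any. The median of the members ranged from -0.0914 (without WT replicate 2) to 0.20 over these fits, and from 0.08 to 0.17 over the other alternatives. Leaving out 1 library gave log2 differences from -0.29 to 0.16 for Crp, -0.0683 to 0.14 for Hp, -0.29 to 0.74 for Lcn2, -0.11 to 0.59 for Orm1, -0.51 to 0.77 for Orm2, 0.18 to 0.90 for Saa1, -0.73 to 0.66 for Saa2 and -0.33 to 0.002 for Saa4. The adjusted p of Saa1 ranged from 0.0417 to 0.604 over these fits and from 0.0794 to 0.257 over the others. Upper-quartile factors gave -0.0205 for Hp, whose sign turned. Orm2 turned to 0.0395 with library totals only, 0.0027 in DESeq2, 0.13 in limma-voom and 0.13 in limma-trend, and Saa2 to -0.0057 in limma-voom and -0.0248 in limma-trend. Of all genes, 907 were called by DESeq2, 136 by limma-voom, 1544 with no filter on low counts, 152 with no robust estimation, 1281 at an adjusted p under 0.1, and 153 to 631 without 1 library, against 346. The share of calls that were higher was 52.6%, with 39.7% under upper-quartile factors and 60.8% with library totals only. The causes were not tested.

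Same-numbered libraries deviated together with a correlation of 0.06 over all tested genes, so the numbers were not taken to pair the mice. A replicate block called 1108 of all genes and 0 members, with a member median of 0.15, and gave 0.12 for Orm2 and -0.0061 for Saa2, both of the other sign.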

Other observations

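Over the 4 libraries, the 5 genes of at least 10 CPM whose centred log2 levels were closest to those of Saa1 were Rps9, Atp5k, Acss2, Fam213a and Mrpl12, among 7380 genes compared, with root mean square differences of 0.0298, 0.0489, 0.0511, 0.0548 and 0.0579. Rps9, a ribosomal protein gene, was at 91.4 and 117 CPM in WT and at 199 and 114 CPM in DDI2-KO libraries, so like Saa1 it was highest in DDI2-KO replicate 1. Those closest to Lcn2 were Lhpp, Tjp3, Sh3pxd2a, S100a10 and Tmie, with differences of 0.0490, 0.0559, 0.0760, 0.0785 and 0.0815. S100a10, the annexin A2 ligand, was at 87.1 and 41.4 CPM in WT and at 79.0 and 62.1 CPM in DDI2-KO libraries, higher in replicate 1 of both genotypes. With 4 libraries, many genes have a like order, and no test was made of these likenesses. Infiltrating monocyte markers summed to 11.3 and 14.9 CPM in WT and to 20.3 and 18.0 CPM in DDI2-KO libraries, with 4 of 5 tested and 0 called. Plac8 carried most of the difference, at 8.12 and 10.6 CPM in WT and 16.7 and 15.1 CPM in DDI2-KO libraries. Of the 4 tested monocyte markers, 2 were fitted above 0 and 2 below, with a median log2 difference of 0.16. Those below 0 were Ccr2 and Ly6c2, at -0.54 and -0.02. Bile duct cell markers summed to 56.5 and 53.1 CPM in WT and to 70.5 and 68.8 CPM in DDI2-KO libraries, with 5 of 6 tested and 0 called. Most of each sum was Spp1, at 51.9 and 46.3 CPM in WT and 64.2 and 62.4 CPM in DDI2-KO libraries. Of the 5 tested bile duct markers, 4 were fitted above 0 and 1 below, with a median log2 difference of 0.32. Krt7 and Sox9 lay below that median, at -0.04 and 0.06.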
